A study of Mus musculus with 2 samples.

Results

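The chemokine ligands *Cxcl12* and *Cxcl14* and the receptors *Cxcr4* and *Ackr3* were followed in single cells of the embryonic mouse eye area. They were chosen by name, are 4 of the 27998 genes counted, and each had 1 gene identifier with UMIs in both libraries. Cells came from the ocular area, both sides pooled, of 1 wild-type (WT) and 1 *Mab21l1*-null (KO) C57BL/6J embryo at the 26-somite stage (E9.25), when the lens placode forms, and went into 1 10x Chromium 3′ library per genotype. Each genotype was therefore a single embryo in a single library, no test between genotypes was possible, and the embryo, the library and the genotype cannot be told apart. Levels are unique molecular identifiers (UMIs) per 1000000 UMIs of a population (CPM), with exact 95% Poisson intervals, and ratios are KO over WT with 95% counting intervals, all of which cover counting error only.

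Chemokines are small secreted proteins that steer cells through receptors in the cell membrane. *Cxcl12* encodes the ligand of both receptors: *Cxcr4* encodes a G protein-coupled receptor that drives directed migration, whereas *Ackr3* encodes an atypical receptor that works through arrestins and takes up and removes the ligand. In embryos this system is known from the guidance of germ cells, neural crest, young neurons and blood vessels. *Cxcl14* encodes a chemokine made by epithelia, whose receptor is not settled.

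The WT-labelled library gave 1680 cells that passed the filters, with a median of 21037 UMIs, and the KO-labelled library gave 2404 cells with a median of 18135. *Mab21l1*, the targeted gene, was at 20.3 CPM over all cells of the WT-labelled library and at 32.5 in the KO-labelled library. In cells like the lens placode it was at 139 and 48.9, and in cells like the optic vesicle at 43.5 and 79.6. The latter held 344 of its 849 UMIs in the WT-labelled library and 1065 of its 1706 in the KO-labelled library. Since the level over all cells went against the labels, genotypes are given as labelled and all directions depend on that. Reads of *Mab21l1* and of *Nbea*, which overlaps it on the other strand, can be told apart only by strand, and the remaining RNA does not show whether protein was made. Both libraries shared 15 cell barcode sequences, and none of the 30 cells that carried them was ectoderm-like.

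Clusters were made without any chemokine gene and named after markers, which gave 16 populations of at least 30 cells. The ectoderm-like cluster (58 WT and 48 KO cells) carried all 7 ectoderm markers, among them *Krt8* and *Epcam*, and split into lens placode-like (LP-like; 29 and 31 cells) and surface ectoderm-like (SE-like; 29 and 17 cells) cells. Mesenchyme-like cells fell into clusters 1, 4, 8, 11 and 12 and neural ectoderm-like cells into clusters 2 and 6. These 7 clusters are compared by number, since the top 10 genes of cluster 4 held the forebrain gene *Emx2*, and those of cluster 2 the neuron gene *Dcx*, and no marker of their own type. Cells like optic vesicle, retinal pigment epithelium (RPE), endothelium, erythrocytes and neural crest formed 1 cluster each, and clusters 5 and 14 stayed unnamed. A cluster of 24 macrophage-like cells was too small to count as a population and is used only for the wider chemokine family. Clusters 6 and 11 held 74.8% and 84.5% WT cells, clusters 4 and 8 held 22.7% and 18.8%, and clusters so uneven may be parts of a library rather than types.

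The files carry gene identifiers and symbols only, and positions are from GENCODE annotation of GRCm38. *Cxcl12* is a plus-strand gene of chromosome 6, at positions 117168535 to 117181367, and *Cxcl14* a minus-strand gene of chromosome 13, at positions 56288643 to 56296551. Both receptors are on chromosome 1, *Cxcr4* at positions 128588199 to 128592293 (minus strand) and *Ackr3* at positions 90203980 to 90216751 (plus strand). No exon of these 4 genes overlaps an exon of another annotated gene, and counting at the 3′ end does not separate the splice forms of *Cxcl12*.

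*Cxcl12* was by far the most abundant of the 4, with 3701 UMIs, of which 88.6% lay in mesenchyme-like cells, 32.9% of all cells. The highest level was in mesenchyme-like cluster 1, whose leading genes included the T-box genes *Tbx15* and *Tbx18* and the proteoglycan gene *Lum*. There it was at 196 CPM in the WT-labelled library (186 to 207; 1358 UMIs in 319 cells) and at 184 in the KO-labelled library (173 to 195; 1172 UMIs in 369 cells). The ratio was 0.935, with a counting interval of 0.864 to 1.01 that reached 1 and held no 2-fold difference. After each cell was thinned to 10000 UMIs, 58.0% of WT and 56.9% of KO cells of this cluster held a *Cxcl12* UMI, and the shares without thinning were 76.2% and 68.0% at median depths of 20930 and 16727 UMIs. Erythrocyte-like cells, which should lack the gene, gave 0% and 3.85% after thinning and 0% and 7.69% before it, at medians of 34642.5 and 33621.5 UMIs.

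**Figure D1:**
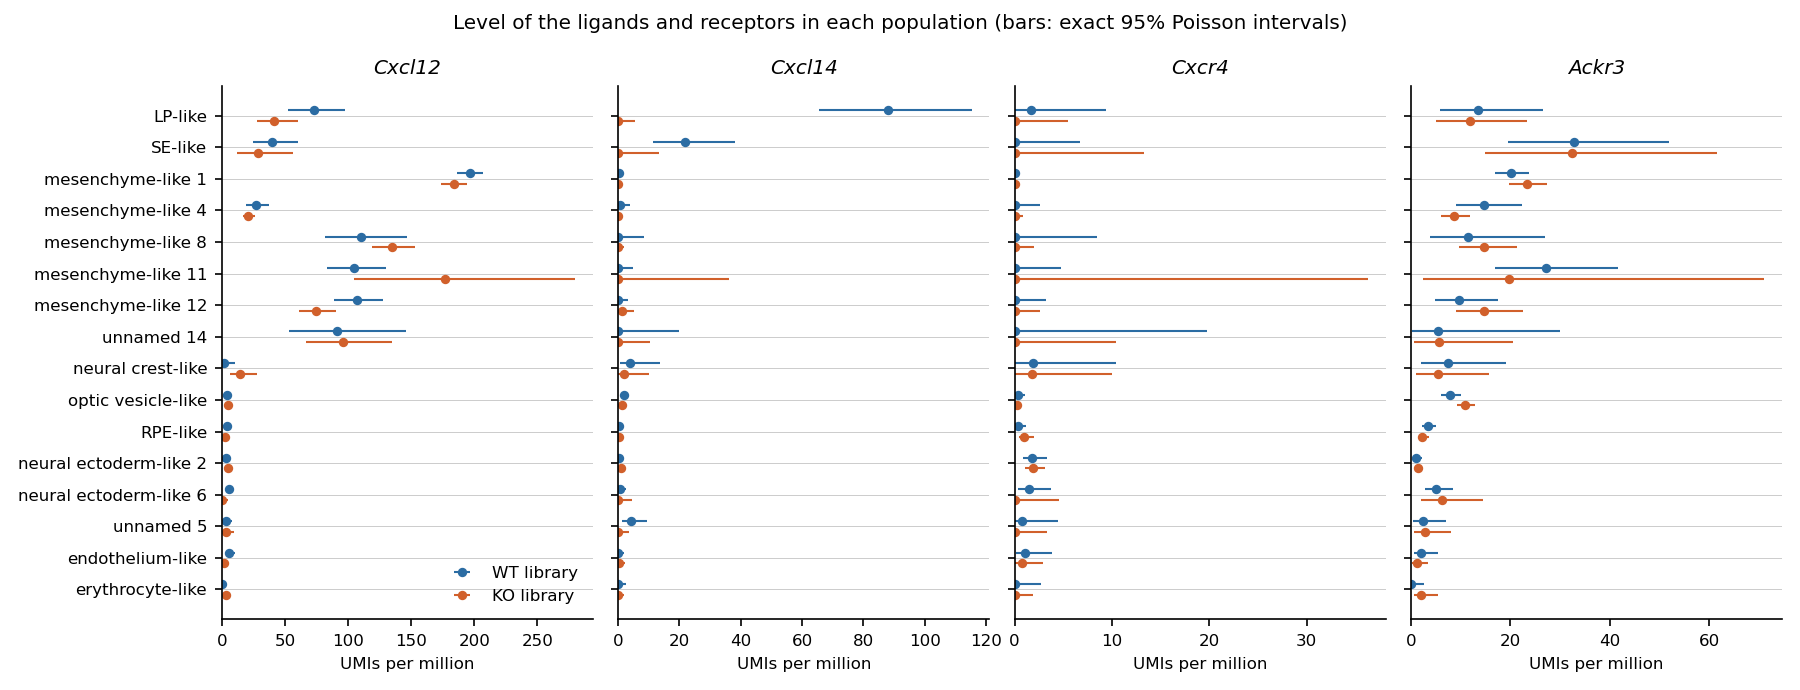
Level of each gene in CPM (x axis, its own linear scale in each panel) in each of the 16 populations (y axis) of the WT-labelled (blue) and KO-labelled (orange) library, with exact 95% Poisson intervals as bars. *Cxcl12* is highest in mesenchyme-like cluster 1, at 196 and 184, and *Cxcl14* in the LP-like cells of the WT-labelled library, at 87.9 beside 0 UMIs in the other.

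The mesenchyme-like clusters differed in *Cxcl12* more than the libraries did. With both libraries summed, cluster 1 stood at 190 CPM (183 to 198), above cluster 8 at 130 (116 to 146), which was followed by cluster 11 at 113 (92.1 to 138), unnamed cluster 14 at 94.5 (70.4 to 124) and cluster 12 at 88.9 (77.7 to 101). Neighbours in this order from cluster 8 to cluster 12 had overlapping intervals. Cluster 4, which led with the homeobox gene *Lhx8*, lay apart at 22.7 (18.9 to 27.0), below both ectodermal populations in order and overlapping with SE-like cells. All 8 mesenchyme markers were present in it, and for each 100 UMIs of them it held 1.98 and 1.45 *Cxcl12* UMIs in the libraries labelled WT and KO, against 13.6 and 14.2 in cluster 1. Cluster 12 had the highest median depth of the mesenchyme-like clusters, 35902 and 30301 UMIs, and held optic vesicle markers at 836 and 815 CPM beside mesenchyme markers at 649 and 607. The part of cells captured in pairs in its values was not tested.

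Cluster 1 itself was not even. At a finer resolution of 1.2 it came apart into a larger piece that led with *Gata3*, *Tbx15*, *Msx2* and *Osr1*, and a smaller piece that led with *Heyl*, *Pax3*, *Tcf15* and *Pax7*. The first, 200 WT and 236 KO cells, held *Cxcl12* at 96.6 CPM (87.5 to 106) and 77.4 (68.9 to 86.5), and the second, 108 and 117 cells, at 385 (361 to 411) and 399 (372 to 426). Without thinning, in the *Pax3* piece 93.5% of WT and 91.5% of KO cells held a *Cxcl12* UMI, compared with 67.5% and 58.1% in the *Gata3* piece. *Pax3* and *Pax7* encode paired-box factors of neural crest and muscle precursors and *Tcf15* a factor of the paraxial mesoderm. The ratio was 1.03 (0.941 to 1.14) in the *Pax3* piece and 0.801 (0.689 to 0.931) in the *Gata3* piece. These pieces were looked at after the level in cluster 1 was known to depend on the resolution, and are a description.

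**Figure D2:**
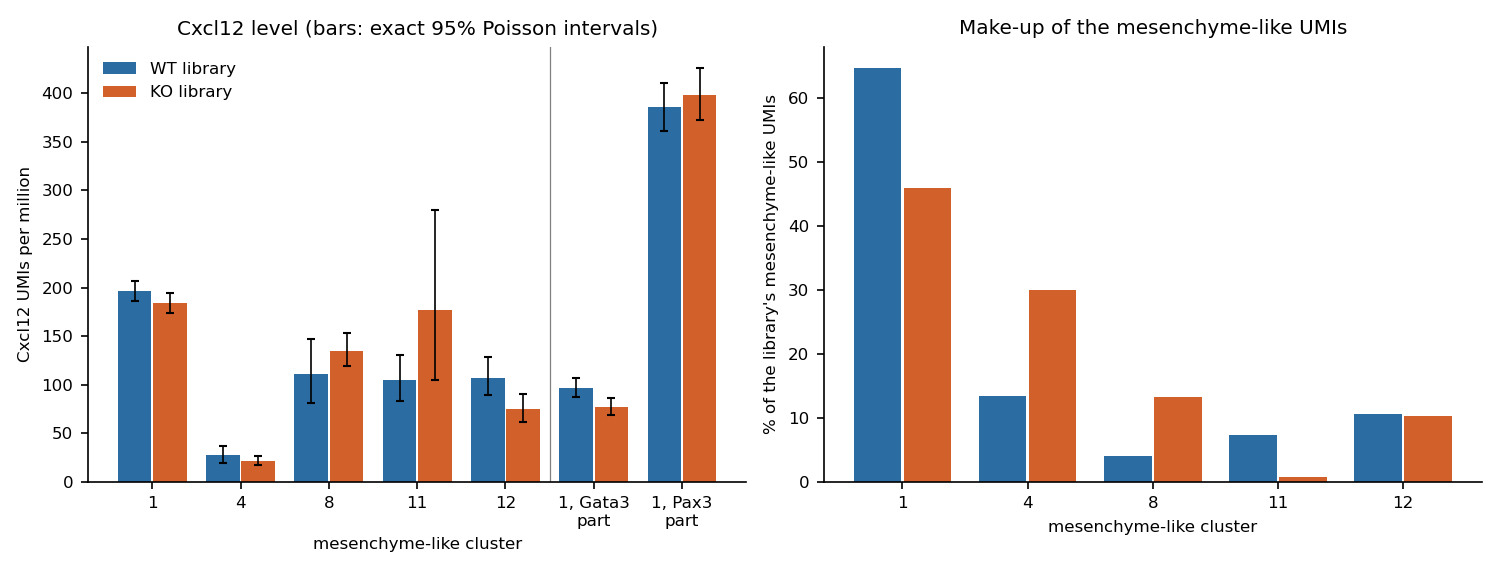
Left, *Cxcl12* in CPM (y axis, from 0) in the 5 mesenchyme-like clusters and in both pieces of cluster 1 (right of the grey line), with exact 95% Poisson intervals, in the libraries labelled WT (blue) and KO (orange). Right, the share of each library's mesenchyme-like UMIs that each cluster held, in percent: cluster 4, at the lowest *Cxcl12* level, held 13.4% in the WT-labelled library and 29.97% in the KO-labelled library.

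In the pooled mesenchyme-like cells *Cxcl12* was at 154 CPM (147 to 162) in the WT-labelled library and at 117 (112 to 123) in the KO-labelled library, a ratio of 0.761 (0.710 to 0.816). The clusters, however, were not present in the same proportions. Cluster 1 held 64.7% of the mesenchyme-like UMIs of the WT-labelled library and 45.9% of those of the KO-labelled library, whereas the *Cxcl12*-poor cluster 4 held 13.4% and 29.97%. With the cluster levels of both libraries weighted by the make-up of the WT-labelled library, the levels were 154 and 148 and the ratio 0.959. Cluster by cluster the ratio was 0.935 in cluster 1, 0.778 (0.528 to 1.17) in cluster 4, 1.22 (0.893 to 1.70) in cluster 8, 1.69 (0.953 to 2.84) in cluster 11 with 18 KO UMIs, and 0.695 (0.531 to 0.910) in cluster 12. In cluster 1, 0.701% and 0.874% of the 10987 genes with at least 20 UMIs were 2-fold higher and lower in the KO-labelled library. The make-up of the dissected mesenchyme and the genotype cannot be told apart here.

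The ectoderm-like cells were a second, smaller site of *Cxcl12*. The ligand was at 57.0 CPM (44.0 to 72.7; 65 UMIs in 58 cells) in the WT-labelled library and at 37.8 (26.5 to 52.4; 36 UMIs in 48 cells) in the KO-labelled library, a ratio of 0.664 (0.429 to 1.01). The LP-like cells held 43 and 28 UMIs, 72.7 and 41.5 CPM with a ratio of 0.571 (0.342 to 0.941), and the SE-like cells 22 and 8 UMIs with a ratio of 0.719 (0.277 to 1.68). In the LP-like cells 48.1% of WT and 46.7% of KO cells held a UMI after thinning. Per 100 mesenchyme marker UMIs, LP-like cells held 50.6 and 33.7 *Cxcl12* UMIs and SE-like cells 46.8 and 25.0, against 13.6 and 14.2 in mesenchyme-like cluster 1. The marker UMIs were few, 85 and 83 in LP-like and 47 and 32 in SE-like cells. In LP-like cells *Prrx2* gave 79 and *Foxc1* 56 of them in both libraries together. The part of mesenchymal RNA or cells in the ectodermal values was not tested.

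In the neural, vascular and blood populations *Cxcl12* was low. Optic vesicle-like cells held 4.42 and 4.78 CPM, neural ectoderm-like cluster 2 held 3.68 and 5.20, and RPE-like cells held 3.95 and 2.52. In these 3 populations the gene ran at 6.62 to 20.1 UMIs per 100 mesenchyme marker UMIs, compared with 13.6 and 14.2 in mesenchyme-like cluster 1. All mesenchyme markers counted 529 and 842 UMIs in optic vesicle-like cells, 201 and 229 in cluster 2 and 310 and 270 in RPE-like cells. *Prrx2* alone gave 935, 224 and 272 in both libraries together, so these ratios rest largely on 1 marker. After thinning 2.35% to 5.50% of the cells of these 3 populations held a *Cxcl12* UMI, against 0% of WT and 3.85% (0.469 to 13.2) of KO erythrocyte-like cells. The summed levels were 4.65 in optic vesicle-like cells, 4.59 in cluster 2 and 3.22 in RPE-like cells, against 1.83 (0.672 to 3.99) in erythrocyte-like cells, and the part of free RNA in them was not tested. Endothelium-like cells held 11 WT and 4 KO UMIs, all 15 of them in the endothelial subcluster richer in arterial markers. These markers were at 436 and 406 CPM there and at 139 and 125 in the other subcluster. Venous markers were high in both, at 793 and 867 CPM in the first and 817 and 739 in the other. The first held 50 WT and 43 KO cells and the other 15 and 59.

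*Cxcl14* was a rare transcript with 124 UMIs and a different site, the ectoderm. The ectoderm-like cells of the WT-labelled library held 64 of its 92 *Cxcl14* UMIs in 18 of 58 cells, 56.1 CPM (43.2 to 71.7). The 48 ectoderm-like cells of the KO-labelled library held none, which allows up to 3.15 CPM at 3 counts over these cells, at least 17.8-fold below the WT level at that limit, and the ratio was at most 0.0711 once the counting error of both libraries was included. Of 8025 genes with at least 20 UMIs in the ectoderm-like cells of both libraries, 2.97% were at least 2-fold lower in the KO-labelled library. *Cxcl14* is among the genes that the study listed from these same libraries, and its loss in LP-like cells was known when it was chosen here, so this count is no independent evidence of the direction.

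Within the ectoderm the ligand was mainly on the lens side. LP-like cells of the WT-labelled library held 52 UMIs, 87.9 CPM (65.6 to 115), in 15 of 29 cells, and SE-like cells 12 UMIs, 21.9 CPM (11.3 to 38.2), in 3 of 29 cells. In the KO-labelled library 0 of 31 LP-like and 0 of 17 SE-like cells held a UMI, with exact upper bounds of 11.2% and 19.5% for the shares. At a limit of 3 counts LP-like cells there were at least 19.8-fold below the WT level. In this population 3.61% of 6424 genes were 2-fold lower. For SE-like cells the same limit gave at least 2.02-fold, on 12 UMIs, fewer than the 20 required for a call. With the counting error of both libraries the ratio was at most 0.0645 in LP-like and at most 0.712 in SE-like cells. The SE-like UMIs lay in only 3 cells, however. The shares of SE-like cells with a UMI had overlapping exact intervals, 10.3% (2.19 to 27.4) in the WT-labelled and 0% (0 to 19.5) in the KO-labelled library. A difference in SE-like cells was therefore not called. The median depths of LP-like cells, 18185 and 18566 UMIs, were close, and after thinning 44.4% of WT and 0% of KO cells held the gene. In erythrocyte-like cells, with medians of 34642.5 and 33621.5 UMIs, no *Cxcl14* UMI was counted.

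**Figure D3:**
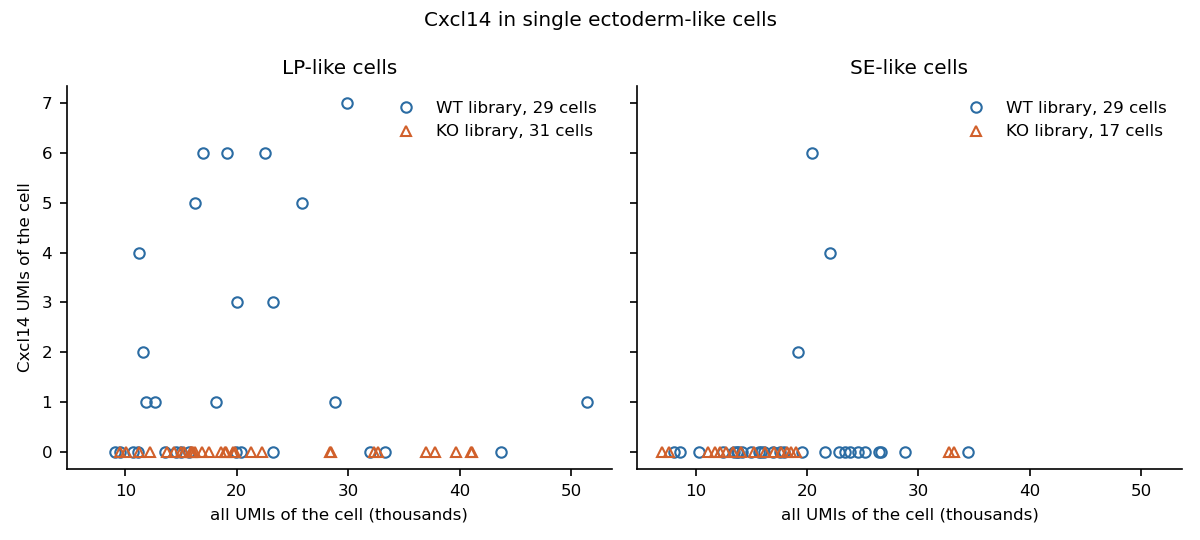
*Cxcl14* UMIs of each ectoderm-like cell (y axis) against all UMIs of the cell (x axis), LP-like cells on the left and SE-like cells on the right, for the WT-labelled (circles) and KO-labelled (triangles) library. All 18 cells with a UMI are of the WT-labelled library and lie between 11267 and 51430 UMIs, while the 48 KO cells without any spread from 6959 to 41131.

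The 15 LP-like cells with *Cxcl14* held 1 to 7 UMIs, with a median of 3. They held *Pitx3*, a lens homeobox gene, at 84.4 CPM compared with 47.8 in the 14 WT cells without *Cxcl14*, and *Cxcl12* at 93.8 compared with 47.8, on 27 and 13 and on 30 and 13 UMIs, and their median depth was higher, 19155 against 15372.5 UMIs. The 3 SE-like cells held 6, 4 and 2 UMIs. The cell with 4 also held 6 *Pitx3* and 12 *Pax6* UMIs, whereas the 26 WT SE-like cells without *Cxcl14* held 1 *Pitx3* UMI together. The part of lens-side cells in the SE-like value was not tested. Among the cells that carry the LP-like name the libraries also differed in other genes. All 10 lens placode markers passed in these cells, but set against SE-like cells their leading genes included *Fzd5*, *Zeb2* and the optic genes *Vax2*, *Pax2* and *Rax*. Optic vesicle markers together stood at 703 and 758 CPM, against 206 and 180 in SE-like cells. These markers include *Six3*, also a lens placode marker, which gave 207 of the 416 marker UMIs in WT and 141 of 511 in KO LP-like cells. The sums therefore do not show the other optic vesicle markers alone. Of the lens placode markers that named the cells, *Pitx3* counted 40 UMIs in the WT-labelled library and 4 in the KO-labelled library, *Cngb3* 38 and 4, *Cbln2* 43 and 0, *Maf* 157 and 63 and *Sfrp2* 522 and 263. *Six3* counted 207 and 141, *Pax6* 245 and 179, *Sox2* 77 and 78, and *Phlda1* 315 and 329. Among the optic vesicle markers, *Lhx2* counted 20 and 38 UMIs, *Six6* 66 and 148 and *Vax2* 3 and 27, the last in 2 and 6 cells. *Hmx1* counted 93 and 112 and *Rax* 23 and 28. The part of optic vesicle RNA or cells in the LP-like values was not tested. The value over the whole ectoderm-like cluster does not rest on the split but includes these same cells.

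Outside the ectoderm *Cxcl14* was sparse and similar in both libraries. All other cells together held 28 WT and 32 KO UMIs, 0.687 and 0.622 CPM, with a ratio of 0.904 (0.528 to 1.56). Of these, optic vesicle-like cells held 14 and 17 UMIs, 1.77 (0.968 to 2.97) and 1.27 (0.740 to 2.03) CPM, with a ratio of 0.718 (0.333 to 1.57). Mesenchyme-like cells held 2 UMIs in each library. The ratio in ectoderm-like cells, with an upper bound of 0.0711, and the ratio in all other cells had intervals that do not meet.

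*Cxcr4*, the signalling receptor, was the least abundant, with 58 UMIs in 57 of 4084 cells. Neural ectoderm-like cluster 2, which led with the neuronal genes *Neurod1*, *Eomes* and *Dcx*, held 28 of them and had the highest level in the summed libraries. It stood at 1.84 CPM (0.919 to 3.29; 11 UMIs) in the WT-labelled library and 1.92 (1.12 to 3.08; 17 UMIs) in the KO-labelled library, a ratio of 1.04 (0.461 to 2.47). After thinning 1.83% and 2.75% of its cells held a UMI, and 4.89% and 4.20% before. The interval of the summed level, 1.26 to 2.73, overlapped those of neural crest-like cells (2 UMIs), neural ectoderm-like cluster 6 (4 UMIs), endothelium-like cells (4 UMIs) and LP-like cells (1 UMI). It also overlapped those of unnamed cluster 5 (1 UMI) and RPE-like cells (11 UMIs, 0.354 to 1.27), so these neighbours cannot be ordered. Optic vesicle-like cells, at 0.329 (0.132 to 0.678), lay below cluster 2. All 4 endothelial UMIs were in the subcluster richer in arterial markers.

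Not a single *Cxcr4* UMI was counted in the 528 WT and 815 KO mesenchyme-like cells, where the ligand was highest. The exact upper bounds of their shares of cells with a UMI were 0.696% and 0.452%. In clusters 1 and 4 the upper bounds of the summed level were 0.278 and 0.658 CPM, below the lower bound of 1.26 in neural ectoderm-like cluster 2. Erythrocyte-like cells held none either, with a summed upper bound of 1.13 CPM that is also below the lower bound of cluster 2. In mesenchyme-like clusters 8, 11 and 12 the upper bounds were 1.62, 4.22 and 1.45, in SE-like cells 4.46 and in unnamed cluster 14 6.84. There a level like that of cluster 2 could not be told from 0 at this depth. Within cluster 2, 15 of 263 cells with a UMI of 1 of the 5 neuron markers held *Cxcr4*, 5.70% (3.23 to 9.23), and 13 of 367 cells without one, 3.54% (1.90 to 5.98), which overlap. The first had the higher median depth, 22215 against 19219 UMIs.

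*Ackr3*, the ligand-removing receptor, had 792 UMIs and the broadest pattern, with 54.5% in mesenchyme-like cells. The highest level was in SE-like cells, 32.8 CPM (19.4 to 51.8; 18 UMIs) in the WT-labelled library and 32.4 (14.8 to 61.6; 9 UMIs) in the KO-labelled library, a ratio of 0.989 (0.391 to 2.32). Mesenchyme-like cluster 1 held the most UMIs, 139 and 149, at 20.1 (16.9 to 23.7) and 23.4 (19.8 to 27.4) CPM with a ratio of 1.16 (0.916 to 1.47). The summed levels of SE-like cells, cluster 11 and cluster 1 (32.7, 26.3 and 21.7) had overlapping intervals. Clusters 8, 12 and 4 and LP-like cells followed between 10.2 and 14.1. After thinning, 25.9% of WT and 33.3% of KO SE-like cells and 16.7% and 18.6% of cluster 1 cells held a UMI, compared with 0% and 1.92% of erythrocyte-like cells.

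The optic vesicle-like cells were the second large site of *Ackr3*, with 62 UMIs in the WT-labelled library and 146 in the KO-labelled library. The levels were 7.84 (6.01 to 10.0) and 10.9 (9.22 to 12.8) CPM, with a ratio of 1.39 (1.03 to 1.91), and 9.39% and 11.1% of thinned cells held a UMI. These cells held 11.7 and 17.3 *Ackr3* UMIs per 100 mesenchyme marker UMIs, of which *Prrx2* gave 935 in both libraries together, against 1.39 and 1.80 in mesenchyme-like cluster 1. RPE-like cells were lower, at 3.43 and 2.27, and neural ectoderm-like cluster 2, the population with the most *Cxcr4*, was at a summed level of 1.22 (0.720 to 1.92), the last of the 16 beside erythrocyte-like cells, also at 1.22 (0.333 to 3.13). The levels of the summed libraries in optic vesicle-like cells (8.49 to 11.2), RPE-like cells (2.06 to 3.81) and cluster 2 had intervals that do not meet.

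Few cells could show both receptors, since *Cxcr4* cells were few. In thinned cells of all populations, 0 of 8 *Cxcr4* cells of the WT-labelled library and 2 of 18 of the KO-labelled library also held *Ackr3*, compared with 8.74% and 8.17% of cells without *Cxcr4*, and both double cells were optic vesicle-like. In neural ectoderm-like cluster 2, 0 of 4 and 0 of 11 *Cxcr4* cells held *Ackr3*. For *Cxcl12* and *Ackr3* in mesenchyme-like cluster 1, 29 of 181 WT cells with *Cxcl12* (16.0%) and 39 of 205 KO cells (19.0%) held *Ackr3*, against 17.6% and 18.1% of the cells without *Cxcl12*. In LP-like cells of the WT-labelled library, 7 of 12 cells with *Cxcl14* also held *Cxcl12*, beside 6 of 15 of those without.

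Between libraries, a difference of at least 2-fold was counted only for a gene with at least 20 UMIs in a population. This was met in 11 populations for *Cxcl12*, of which 0 were past 2-fold, in 8 for *Ackr3*, of which 0 were, in 1 for *Cxcr4*, which was not, and in 2 for *Cxcl14*, of which LP-like cells were lower in the KO-labelled library and optic vesicle-like cells were within 2-fold. Among all genes so counted, the shares at least 2-fold higher and lower were smallest in the large clusters: 0.813% and 0.612% in optic vesicle-like cells, 0.99% and 0.929% in neural ectoderm-like cluster 2 and 1.17% and 0.581% in RPE-like cells. They were 2.11% and 1.24% in mesenchyme-like cluster 4, 5.13% and 2.1% in cluster 8, 4.55% and 11.6% in cluster 11, 2.59% and 1.23% in cluster 12 and 5.12% and 1.7% in unnamed cluster 14. In ectoderm they were 3.22% and 3.61% in LP-like cells, 1.93% and 4.6% in SE-like cells and 1.94% and 2.97% in all ectoderm-like cells. In each of these populations most genes had ratios within 2-fold, as *Cxcl12*, *Cxcr4* and *Ackr3* had where counted. Several of their counting intervals reached past 2-fold, among them *Cxcr4* in cluster 2 (0.461 to 2.47) and *Ackr3* in SE-like cells (0.391 to 2.32). The interval of *Cxcl12* in LP-like cells (0.342 to 0.941) did so too. In such cases the counts do not settle whether the gene was within 2-fold.

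**Figure D4:**
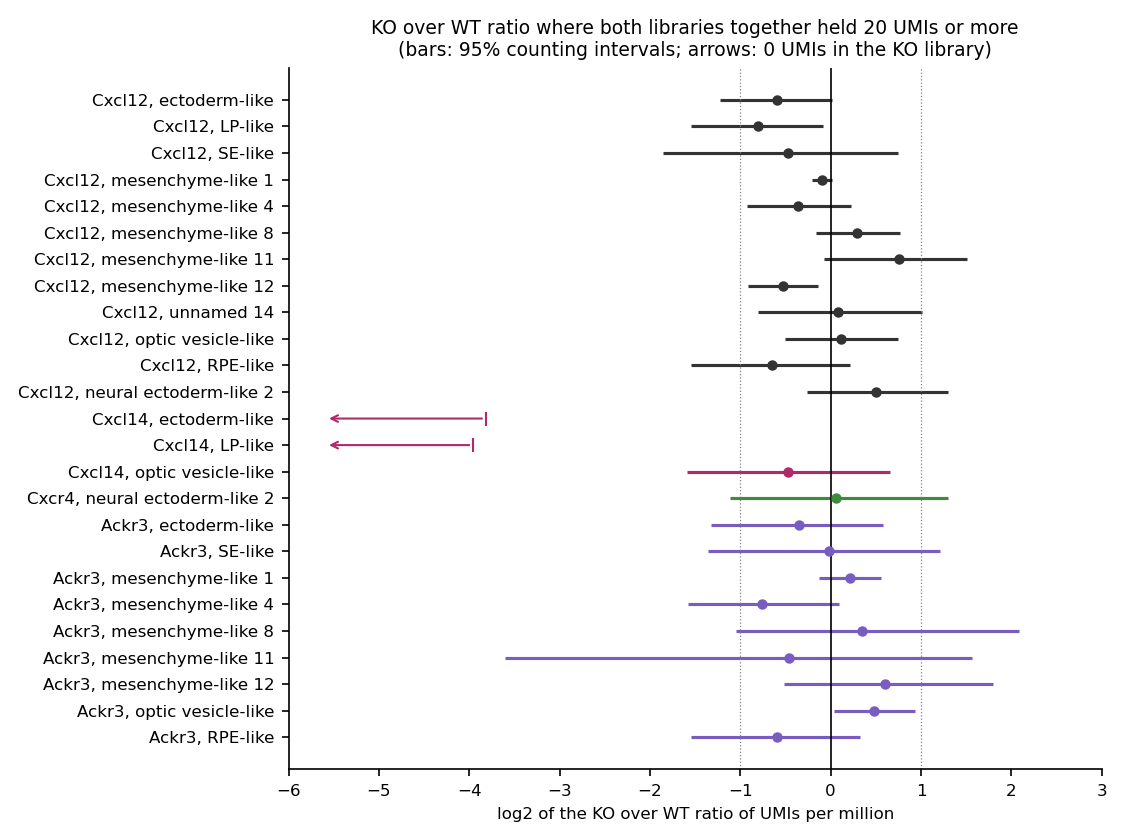
The log2 of the KO over WT ratio of CPM (x axis) for each gene and population with at least 20 UMIs in both libraries together, and for the ectoderm-like cells as a whole, with 95% counting intervals; dotted lines mark 2-fold. Arrows to the left start at the upper bound where the KO-labelled library held 0 UMIs, which is the case for *Cxcl14* in ectoderm-like and LP-like cells, while the other intervals reach or cross 0 except *Cxcl12* in LP-like cells and mesenchyme-like cluster 12 and *Ackr3* in optic vesicle-like cells.

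The genes whose pattern was most like each of the 4 were sought over the 32 sums of 16 populations and 2 libraries, by Pearson's r of log2(CPM + 1), as a description; the sums share libraries and depth. *Cxcl12* was most like the homeobox gene *Irx3* (0.91), *Plat* (0.89), the adhesion gene *Clmp* (0.88), the forkhead gene *Foxc1* (0.87) and *Nab2* (0.87). The first 4 were highest in mesenchyme-like clusters and *Nab2* in unnamed cluster 14, and *Foxc1* is among the mesenchyme markers that named the clusters. *Cxcl14* was most like *Pitx3* (0.82), *Ccdc33* (0.79), the proneural gene *Neurog1* (0.76), *Pld4* (0.76) and *Cngb3* (0.76), of which *Neurog1* was highest in SE-like and the others in LP-like cells. *Pitx3* and *Cngb3* are among the markers that named the LP-like cells. These 5 genes had only 54 to 102 UMIs each, and 52 of the 124 *Cxcl14* UMIs lay in 1 sum, the LP-like cells of the WT-labelled library. *Ackr3* was most like *Gpc3* (0.85), *Igdcc3* (0.85), *Gas1* (0.83), *Cdc14b* (0.83) and *Npnt* (0.82), of which *Gpc3*, *Gas1* and *Npnt* were highest in SE-like cells. For *Cxcr4* the closest genes included *Frrs1l* (0.72), *Fam78b* (0.72), *Tspan18* (0.70) and *Tdrd7* (0.69), on so few UMIs that these values are weak.

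Of the wider chemokine family few genes were well counted: of 37 ligand symbols found, 14 had at least 20 UMIs, and of 23 receptor symbols 7 did. Over all cells 3 of those 14 ligands were at least 2-fold lower and 1 at least 2-fold higher in the KO-labelled library, where 1.66% and 0.673% of 14568 genes were lower and higher. The lower ones besides *Cxcl14* were the inflammatory ligands *Ccl3* (42 and 9 UMIs) and *Ccl12* (19 and 2) and, of the receptors reported here, *Ccr1* (27 and 9) and *Cx3cr1* (301 and 94). These 4 lay mostly in the macrophage-like cells, which held 85.7% of *Ccl12*, 94.1% of *Ccl3*, 97.0% of *Cx3cr1* and 100% of *Ccr1* UMIs. There were 17 and 7 such cells in the WT-labelled and KO-labelled libraries, 1.01% and 0.291% of cells. Within them *Cx3cr1* was at 476 and 423 CPM, *Ccr1* at 44.0 and 41.8 and *Ccl3* at 65.2 and 37.2. *Ccl12* was at 29.3 and 0 CPM in them, on 18 and 0 UMIs. *Ccl9* (34 and 26 UMIs) and *Ccl6* (22 and 14) were highest in these cells too, at 52.1 and 112 CPM and at 24.4 and 27.9 CPM.

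The single ligand called higher over all cells was *Pf4*, a platelet chemokine, with 39 UMIs in the WT-labelled library and 191 in the KO-labelled library. Of the latter, 177 lay in 1 endothelium-like cell, so 1 cell decides this ratio. Among the other ligands *Cxcl13*, the B cell attractant, was counted mostly in the mesenchyme. It had 21 and 50 UMIs in cluster 1 (3.04 and 7.84 CPM) and 5 and 45 in cluster 4 (3.48 and 10.8 CPM). In both clusters it was more than 2-fold higher in the KO-labelled library, where 0.701% and 2.11% of all genes with at least 20 UMIs were. Over all cells *Cxcl13* had 42 and 102, a ratio of 1.94 (1.34 to 2.85). *Cxcl5*, which attracts neutrophils, was mainly in optic vesicle-like cells, with 18 and 43 UMIs (2.28 and 3.21 CPM), and RPE-like cells, with 10 and 10 (1.32 and 1.26 CPM). *Cxcl3*, another attractant of neutrophils, counted 7 UMIs in WT and 0 in KO LP-like cells (11.8 and 0 CPM), and 0 and 12 in optic vesicle-like cells (0 and 0.897 CPM). *Cx3cl1*, the membrane-bound ligand of *Cx3cr1*, was highest in LP-like cells in the summed libraries, with 18 and 5 UMIs (30.4 and 7.42 CPM). It counted 11 and 24 UMIs in endothelium-like cells (5.79 and 9.61 CPM) and 30 and 48 in neural ectoderm-like cluster 2 (5.02 and 5.43 CPM). In the KO-labelled library it was at 7.42 CPM in LP-like and 9.61 in endothelium-like cells. *Cxcl16* counted 33 UMIs, 45.5% of them in RPE-like cells. Exons of *Cxcl16* overlap *Zmynd15* and those of *Cx3cr1* overlap *Gm33858* on the opposite strand, so their reads can be told apart only by strand.

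**Figure D5:**
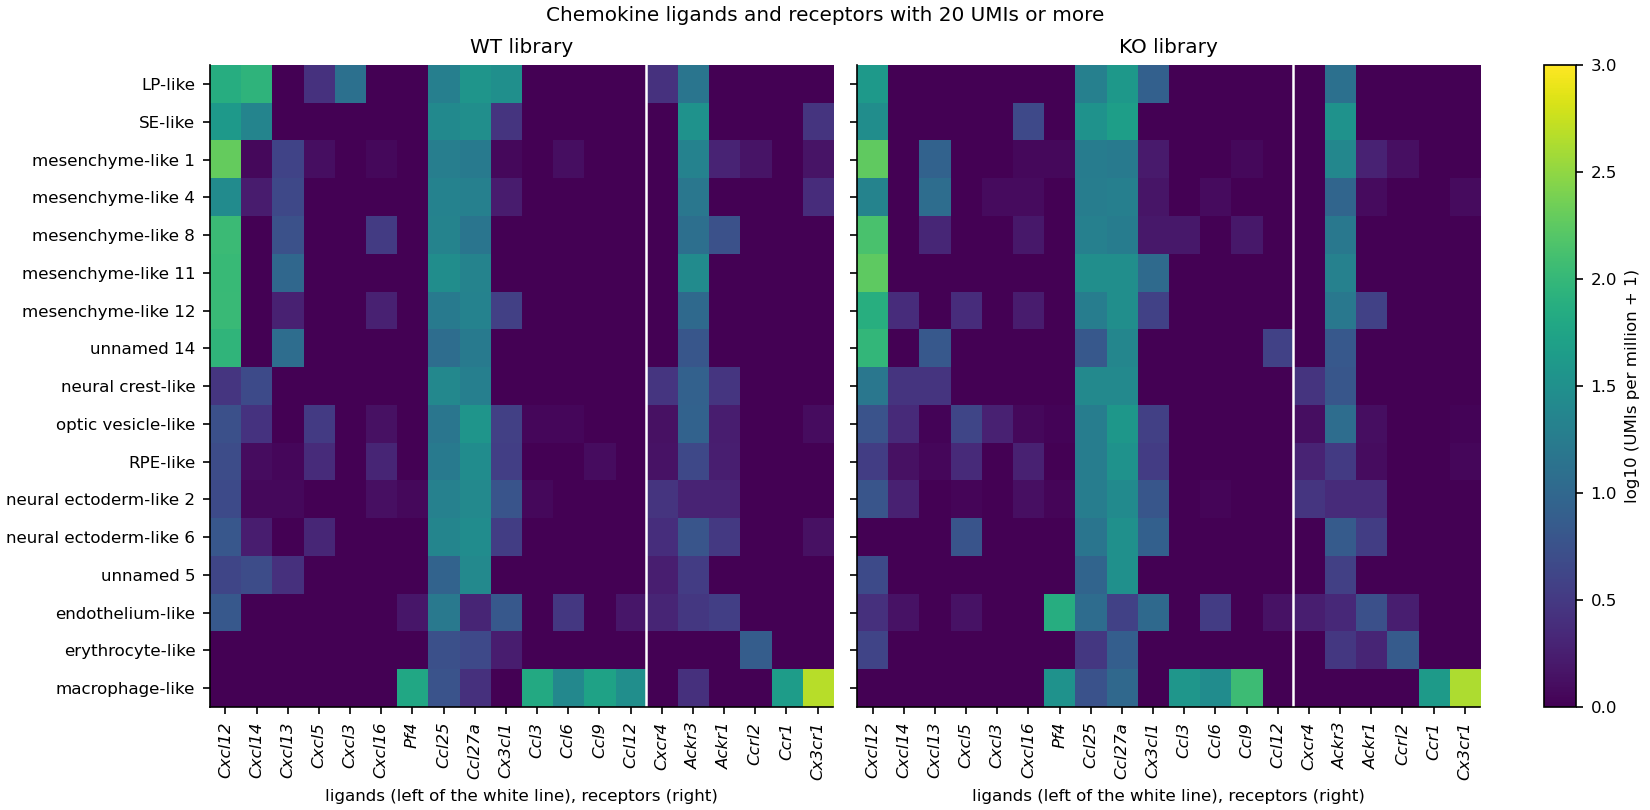
Colour gives log10 of CPM plus 1 for 20 chemokine ligands and receptors, each with at least 20 UMIs (columns), in each population (rows), for the WT-labelled library on the left and the KO-labelled library on the right. *Cxcl12*, *Ccl25*, *Ccl27a* and *Ackr3* are spread over many populations, *Cxcl14* shows in the ectodermal rows of the WT-labelled library alone at a high level, and *Ccl3*, *Ccl6* and *Ccl9* stand out in the macrophage-like row of both libraries, *Ccl12* there in the WT-labelled library.

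*Ccl27a* and *Ccl25*, with 2386 and 1580 UMIs, were counted in all 17 clusters and subclusters, at ratios of 1.13 (1.04 to 1.22) and 0.991 (0.897 to 1.10) over all cells. Exons of *Ccl27a* overlap *Il11ra1* and those of *Ccl25* overlap *Elavl1* on the opposite strand, and *Ccl27a* has near-identical copies under 2 further identifiers with 0 UMIs, so both counts are uncertain. Of the atypical receptors, *Ackr1* (83 UMIs) was at 2.63 and 4.40 CPM in endothelium-like cells, on 5 and 11 UMIs, 19.3% of its total. Neural ectoderm-like cluster 2 held 18 *Ackr1* UMIs, 21.7%. Exons of *Ackr1* overlap *Cadm3* on the same strand, so strand does not tell their reads apart. *Ccrl2* (28 UMIs) had 75.0% of its UMIs in erythrocyte-like cells.

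Most genes that act with or downstream of the ligand and its receptors were expressed nearly throughout, whereas *Dpp4* was counted in only 7 clusters and subclusters. Of 29 such genes 28 had at least 20 UMIs over all cells, 0 of them differed by 2-fold, where 1.66% and 0.673% of all 14568 genes were lower and higher, and the median ratio was 0.987 beside 1.003 over all genes. The lowest ratios were those of *Dpp4*, a protease that trims the ligand, at 0.599 on 14 UMIs (0.171 to 1.97), *Gnb1*, a G protein beta subunit, at 0.718 (0.699 to 0.738), and the small GTPase gene *Rac1* at 0.735 (0.711 to 0.759). The highest were those of *Gnai1*, an inhibitory G protein alpha subunit through which *Cxcr4* signals, at 1.28 (1.19 to 1.38), the receptor kinase gene *Adrbk2* at 1.25 (0.927 to 1.70) and *Stat3* at 1.11 (0.917 to 1.34). These are levels over all cells, which the different make-up of both libraries also enters.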

How the data were processed

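The authors dissociated the dissected ocular areas with trypsin, sequenced 10x Chromium 3′ libraries, and used Cell Ranger with mm10 (GRCm38) to count UMIs of each gene in each cell, per the submitters' processing notes and the study's methods. Cell Ranger aggr joined both libraries and may have subsampled reads to equal depth. The deposited values are whole-number UMI counts, not normalized.

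From these counts, cells were kept that had 1500 to 8000 genes and no more than 5% of UMIs from mitochondrial genes, which left 1680 and 2404 of the 1745 and 2458 barcodes deposited; the study states the same numbers of cells. The methods write the mitochondrial limit as a fraction with a percent sign, read here as 5%. Counts were scaled to 10000 per cell, cell cycle scores regressed out, and cells clustered (resolution 0.6, 40 principal components) in Seurat 5.3.0 under R 4.3.3, with 1549 variable genes that excluded chemokine ligands and receptors. A cluster was named when at least 3 markers of a type, each with at least 20 UMIs and in at least 5% of cells, were 2-fold above other cells; this rule was chosen with the data in view. The ectoderm-like cluster was split on 10 principal components, without 54 genes that the study names. No doublet caller was run and the methods name no doublet removal. An alternative run left out cells above 2 times the median UMIs of their population, which is a limit on depth only. It cannot find cells captured in pairs where these raise the median itself.

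UMIs were summed per population and library. Ratios have exact conditional binomial intervals and shares exact Clopper-Pearson intervals, all at 95%; a count of 0 was read as up to 3 counts. With 1 library per genotype no test was run, and a call is a ratio past 2-fold with at least 20 UMIs in both libraries together. On simulated Poisson counts for mesenchyme-like cluster 1 (10055 genes, 200 changed), 200 had the right sign and 95.3% of true ratios lay within the interval. The interval assumes such counts, so this checks the calculation only. The simulated counts held no spread between cells or embryos.

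The 4 genes, gene lists and markers were chosen with earlier results of these data known. Named genes are the 4, other chemokine genes with at least 20 UMIs, the 3 highest and 3 lowest ratios of the signalling list, the 5 genes most like each of the 4 among those with at least 50 UMIs, and markers; leading genes of clusters and pieces were named after their values were seen. Sums, intervals and plots were made in Python 3.11.15 (pandas 2.3.3, scipy 1.17.1, numpy 2.4.6, matplotlib 3.10.9). *Cxcl11* was not analysed here, and some genes that these rules name are not reported here.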

Additional observations from a re-analysis of the deposited data

Results flagged for a closer look

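The *Cxcl12* ratio of KO to WT lay on opposite sides of 1, beyond its counting interval, in different populations; the difference between them was not tested. It was above 1 in neural crest-like cells, at 7.65 (1.03 to 339), on 1 and 8 UMIs. It was below 1 in mesenchyme-like cluster 12 at 0.695 (0.531 to 0.910), in LP-like cells at 0.571 (0.342 to 0.941), and in endothelium-like cells at 0.277 (0.0643 to 0.934) on 11 and 4 UMIs. In neural ectoderm-like cluster 6 it was 0, with an upper bound of 0.947, on 15 and 0 UMIs. The neural crest-like, endothelium-like and cluster 6 ratios rest on fewer than the 20 UMIs in both libraries together required for a call. They include the only ratio listed above 1. The share of all genes whose interval leaves out 1 in these populations was not computed. The list therefore does not show a pattern particular to *Cxcl12*. A single cell held 6 of the 8 neural crest-like UMIs of the KO-labelled library, and another held 7 of the 15 UMIs of cluster 6. In the WT-labelled library 1 cell held 21 of the 121 UMIs of cluster 12, and 1 cell held 8 of the 43 LP-like UMIs. After thinning, 48.4% of WT and 51.2% of KO cells of cluster 12 held a *Cxcl12* UMI, and 48.1% and 46.7% of LP-like cells did. The endothelium-like UMIs all lay in the subcluster richer in arterial markers, which held 50 of 65 WT and 43 of 102 KO cells. The part of this make-up in the endothelial ratio was not tested. With 1 library per genotype the intervals leave out the spread between embryos.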

How the results depend on the processing

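The lower *Cxcl14* in LP-like cells of the KO-labelled library, the only ratio past 2-fold among the 4 genes in their leading populations, kept its direction under each alternative run. *Cxcl12* in mesenchyme-like cluster 1 moved from 0.935 to 0.743 at resolution 0.3 and to 0.801 at resolution 1.2, where the matching cluster was its *Gata3* piece, and *Ackr3* there moved from 1.16 to 0.886 at resolution 0.3. *Cxcl12* over all mesenchyme-like cells moved from 0.761 to 0.959 when cluster levels were weighted by the make-up of the WT-labelled library, an alternative chosen after seeing the data. Over all settings the ratio lay between 0.743 and 0.9503 for *Cxcl12* in cluster 1, 0.877 and 1.68 for *Cxcr4* in neural ectoderm-like cluster 2, 0.749 and 1.21 for *Ackr3* in SE-like cells and 0.886 and 1.27 for *Ackr3* in cluster 1. For *Cxcl14* in LP-like cells the ratio with the limit of 3 counts in place of 0 lay between 0.0470 and 0.0588. Leaving out the cells whose barcodes occur in both libraries, also chosen after seeing the data, moved none of these. Of 194 other values 22 moved, 5 of 10 each without thinning and with thinning to 15000 UMIs, 5 of 20 each at both other resolutions. At resolution 0.3 no RPE-like cluster was found. No paired analysis was possible because each genotype had 1 library. The few LP-like and SE-like cells limit what the ectoderm can show, and *Cxcr4* was at the edge of detection everywhere.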
